A study of Mus musculus with 62 samples.

Results

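Mouse hearts were divided by whether they held transcript of H2-Ea-ps, the gene of the alpha chain of the class II molecule E in the mouse major histocompatibility complex. Among 62 heart libraries 8 had under 1 TPM of H2-Ea-ps (hearts without the transcript) and 54 had 1 TPM or more (hearts with the transcript). TPM is the abundance of a transcript per length, as a share of its library. The members were thus chosen by the measured TPM of H2-Ea-ps. One library with the transcript, Con week 4 replicate 2, was left out because mitochondrially encoded genes held 89.1% of its TPM, so 53 hearts with the transcript entered the comparison. The 2 sets were made from the measured values and are not groups of the study, so the level of H2-Ea-ps itself is a description and carries no test.

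The study followed hearts after injection of melanoma cells of a cachectic (CAC) or a non-cachectic (NCAC) kind, or a mock injection (Con), at weeks 2, 4, 6 and 8. Every group had 5 libraries except CAC at week 8, which had 7. All mice were female and 2 months old. The labels give C57BL6/J as the strain of every sample, whereas the design text names NCI Ath/nude mice, an athymic stock. CAC and NCAC mice carried different tumour cells, so an effect of cachexia and an effect of the cell line cannot be told apart. The labels call the libraries biological replicates, and the p-values measure only the spread between these libraries.

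The H2 complex on mouse chromosome 17 holds the class I genes, whose products present peptides from inside the cell, the class II genes, whose products present peptides taken up from outside, and between them the class III genes of complement, heat-shock and other proteins. Class II molecules are pairs of an alpha and a beta chain: H2-Aa pairs with H2-Ab1, and the product of H2-Ea pairs with that of H2-Eb1. Inbred strains carry different versions of the complex, called haplotypes, that are inherited as blocks. The haplotype of C57BL/6 has a promoter deletion in H2-Ea and makes no E alpha chain, and the reference annotation lists the gene as a pseudogene.

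H2-Ea-ps lies on the minus strand at chr17:34341959-34344645 (GENCODE M21, GRCm38, the build that is also called mm10). The H2 region is taken here from the first to the last gene on chromosome 17 whose symbol begins with H2-, chr17:33974659-37483552. Of 12540 genes tested besides H2-Ea-ps, 6 differed between hearts without and hearts with the transcript after adjustment for the 12 groups of arm and week, which is 0.0478% of the genes tested. All 6 lie on chromosome 17, while some alternative settings also called 1 or 2 genes on other chromosomes. Hearts without the transcript had less H2-Q2, Gm10499, Gm11127 and Hspa1l, inside the H2 region. They also had less Pfdn6 and more Zfp81, at lower coordinates outside it. Lower calls made up 0.0399% of the genes tested and the single higher call 0.00797%. That balance moved with the settings: 5 of 10 calls were higher with no filter on low values, and 4 of 10 with array quality weights.

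The 300-base promoters of 4 of these genes, from 250 bases before the start to 50 after it, are shown for the 3 class I region genes called lower and for Pfdn6, the gene with the smallest p. They come from RefSeq (GRCm38.p6), which held a promoter for 6 of the 6 genes and none for H2-Ea-ps. Capitals mark the letters TATAAA and CCAAT and their reverse complements TTTATA and ATTGG, searched on both strands.
H2-Q2, chr17:35342057-35342356, plus strand: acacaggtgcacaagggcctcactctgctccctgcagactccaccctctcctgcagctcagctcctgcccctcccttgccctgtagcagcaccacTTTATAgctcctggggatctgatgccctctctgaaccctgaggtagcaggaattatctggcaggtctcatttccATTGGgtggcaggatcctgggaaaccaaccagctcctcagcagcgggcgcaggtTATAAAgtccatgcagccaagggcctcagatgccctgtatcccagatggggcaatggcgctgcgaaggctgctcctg
Gm10499, chr17:36145900-36146199, minus strand: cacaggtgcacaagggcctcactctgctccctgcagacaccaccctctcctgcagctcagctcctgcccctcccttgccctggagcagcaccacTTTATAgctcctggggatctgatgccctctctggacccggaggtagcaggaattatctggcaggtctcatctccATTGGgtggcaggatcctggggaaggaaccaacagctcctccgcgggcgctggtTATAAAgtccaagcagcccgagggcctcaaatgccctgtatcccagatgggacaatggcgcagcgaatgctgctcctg
Gm11127, chr17:36058322-36058621, minus strand: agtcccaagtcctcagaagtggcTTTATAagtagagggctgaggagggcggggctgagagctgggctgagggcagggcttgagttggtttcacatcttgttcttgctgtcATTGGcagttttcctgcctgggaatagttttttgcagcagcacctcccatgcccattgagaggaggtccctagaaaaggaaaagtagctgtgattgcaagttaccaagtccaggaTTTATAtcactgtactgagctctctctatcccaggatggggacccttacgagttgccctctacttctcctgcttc
Pfdn6, chr17:33940294-33940593, minus strand: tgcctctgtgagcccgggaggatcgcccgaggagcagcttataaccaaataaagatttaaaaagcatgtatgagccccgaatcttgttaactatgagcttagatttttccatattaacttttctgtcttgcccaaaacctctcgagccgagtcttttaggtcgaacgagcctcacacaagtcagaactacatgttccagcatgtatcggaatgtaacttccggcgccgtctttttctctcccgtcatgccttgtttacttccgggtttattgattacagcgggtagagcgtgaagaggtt
The H2-Q2 and Gm10499 promoters were identical in 283 of 305 aligned columns, or 92.8%, while the other pairs among the 6 genes lay between 46.9 and 52.5%. TATAAA or its reverse occurred 2 times in each of the H2-Q2, Gm10499 and Gm11127 windows, and 13.6% of 32851 RefSeq promoters of this length hold it. CCAAT or its reverse occurred 1 time in each of the 3 windows, against 37.4% of all promoters with at least 1 match. The Pfdn6 window held neither. These matches describe the letters of the reference and not the alleles of these mice.

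H2-Ea-ps was listed at 0 TPM in 4 of the 8 hearts without the transcript, CAC week 8 replicate 3, Con week 2 replicate 5 and Con week 8 replicates 2 and 5. The other 4 had 0.129 TPM (CAC week 2 replicate 1), 0.0973 TPM (CAC week 2 replicate 2), 0.379 TPM (Con week 6 replicate 4) and 0.842 TPM (NCAC week 4 replicate 5). The 8 libraries therefore came from 6 of the 12 groups and from each of the 3 arms. The 53 hearts with the transcript had 3.75 to 51.5 TPM, with a median of 12.7 TPM. The libraries nearest the threshold of 1 TPM were 0.842 and 0.379 TPM below it and, above it, the left-out library at 1.85 TPM and then 2 libraries at 3.75 and 3.78 TPM. At week 8 the hearts with the transcript spanned 3.75 to 40.1 TPM in CAC, 10.4 to 18.5 TPM in NCAC and 7.50 to 51.5 TPM in Con, the narrowest range being that of NCAC.

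**Figure D1:**
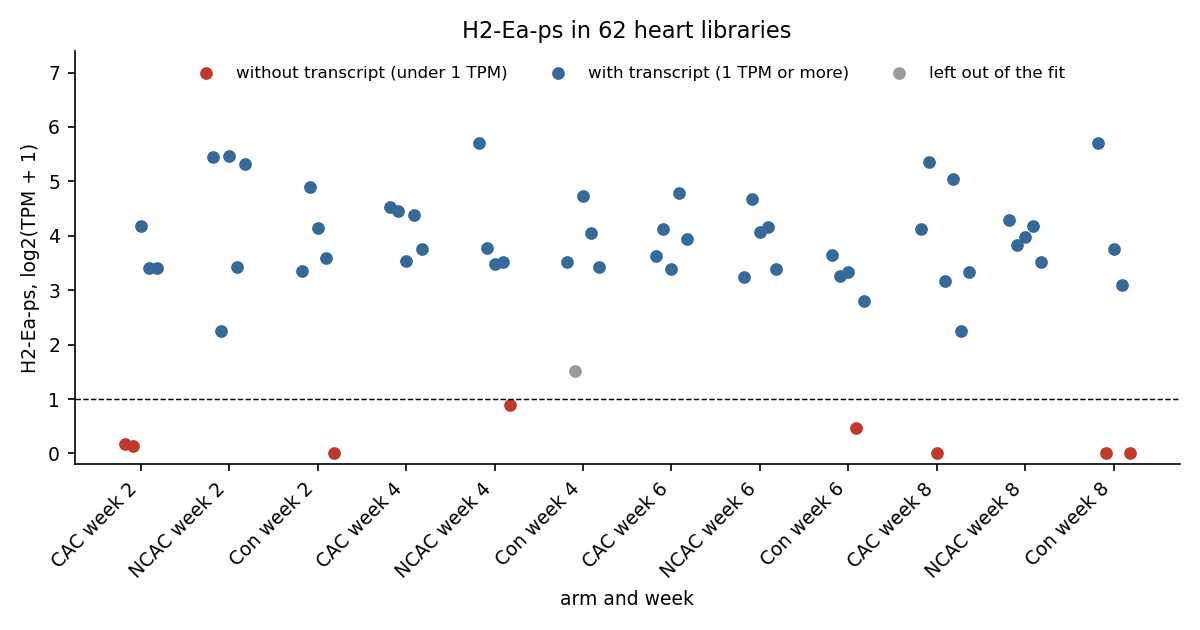
H2-Ea-ps level as log2(TPM + 1) in each of 62 heart libraries, by arm and week. Red points are the 8 hearts under 1 TPM, blue points the 53 hearts with the transcript and the grey point the library left out; the dashed line is the threshold, and a wide gap separates the red from the blue points.

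Heart muscle genes were abundant in both sets: 6 cardiomyocyte markers summed to 26121 to 32377 TPM in hearts without and 17641 to 31323 TPM in hearts with the transcript. The 6 T cell markers summed to 0.148 to 0.875 TPM and 0.242 to 1.68 TPM in the same order, and none of them reached the filter. Macrophage markers (6 genes) summed to 89.9 to 211 TPM in hearts without and 59.0 to 517 TPM in hearts with the transcript, and B cell markers (6 genes) to 6.90 to 22.2 TPM and 4.13 to 24.5 TPM. No tested marker of the cell types listed was called between the sets. Over all genes 0.0478% were called, so 0 calls in such short lists say little. Skeletal muscle markers were not tested either, and 1 of 5 dendritic cell markers was. Unadjusted p was under 0.05 for 2 of 6 cardiomyocyte markers. It was also under 0.05 for 1 of 4 tested B cell, 1 of 4 neutrophil and 1 of 2 tested melanocyte markers. Depth relative to the median library was 0.669 to 1.03 in hearts without and 0.540 to 1.12 in hearts with the transcript, and the mitochondrial share of TPM was 52.9 to 60.6% and 49.3 to 61.1%.

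Among the 8, the library labelled CAC week 8 replicate 3 stood apart from its group. The acute-phase gene Serpina3n was at 54.9 TPM there and at 1665 to 2841 TPM in the other 6 CAC week 8 hearts, and Lcn2, an iron-carrier binding protein of inflammation, at 3.22 TPM against 209 to 342 TPM. Mt2, a metallothionein gene, was at 194 TPM against 952 to 2800 TPM. The muscle kinase gene Mylk4 stood at 37.9 TPM against 2.16 to 8.24 TPM, and was chosen after its values were seen. Values without this library are therefore given beside each of the 6 called genes.

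H2-Q2 and Gm10499 are class I region genes. H2-Q2 encodes a class I heavy chain of the Q group, and Gm10499 is annotated as a transcribed unprocessed pseudogene in GENCODE and as protein coding in RefSeq. Both were low transcripts, and both were lower in each of the 8 hearts without the transcript than in every heart with the transcript of the same arm and week. Such counts within groups were not made over all genes, and the genes were chosen by their difference between the same sets. Here and below the counts are therefore a description and no separate test. H2-Q2 reached at most 0.650 TPM and Gm10499 at most 0.891 TPM in hearts without the transcript. Both therefore passed the filter of 1 TPM in 5 libraries only through hearts with it. With no filter they were also called (limma adjusted p = 0.00613 and 0.00456). In bulk hearts fewer cells that express a gene and less RNA per cell cannot be told apart, which applies to every gene here. Reads were mapped to mm10, and whether H2 alleles that differ from this reference lose reads was not tested.

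H2-Q2 (chr17:35342242-35346762, plus strand) ranged from 0.119 to 0.650 TPM with a median of 0.264 TPM in hearts without the transcript, and from 0.616 to 7.15 TPM with a median of 2.08 TPM in hearts with it. The ranges met only at their edges. Means were 0.322 ± 0.182 TPM (SD, n = 8) and 2.69 ± 1.76 TPM (SD, n = 53). Differences between the sets are given as log2(TPM + 1), so for transcripts at such low levels they come out smaller than the ratio of the means. The difference was -1.29 (SE 0.23, limma adjusted p = 0.00251), and without CAC week 8 replicate 3 it was -1.18 (limma adjusted p = 0.0456).

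Gm10499 (chr17:36141758-36145923, minus strand) ranged from 0.0984 to 0.891 TPM, median 0.410 TPM, in hearts without and from 0.315 to 4.95 TPM, median 1.82 TPM, in hearts with the transcript. The ranges overlapped, although within each arm and week they did not. Its difference was -1.05 (SE 0.18, limma adjusted p = 0.002), and -1.04 without CAC week 8 replicate 3 (limma adjusted p = 0.0194).

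Gm11127 (chr17:36055816-36058371, minus strand), listed by RefSeq as protein coding with the synonym H2-K1, was lower in 7 of 8 hearts than in all hearts with the transcript of the same group. It stood at 0.165 TPM in NCAC week 4 replicate 5 and at 0.194 TPM in Con week 6 replicate 4, and at 3.28 to 8.72 TPM in the other 6 hearts without the transcript. Hearts with the transcript had 1.48 to 22.8 TPM, median 9.14 TPM. The difference of -1.35 (SE 0.28, limma adjusted p = 0.0209) was not called without NCAC week 4 replicate 5 (-1.02, limma adjusted p = 0.49), without Con week 6 replicate 4 (-1.12, limma adjusted p = 0.363) or without CAC week 8 replicate 3 (-1.38, limma adjusted p = 0.0626). Of the 50-base stretches of its transcript, 63.8% also occur in other genes, against 16.1% for H2-Q2 and 12% for Gm10499. The authors' counting could split such reads, so the level of each of these 3 genes is uncertain. Gm10499 and Gm11127 also overlap genes on the other strand, 2410017I17Rik and Gm6034, and whether counting used the strand is not given in the sources used here.

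Hspa1l (chr17:34972703-34979285, plus strand) is a class III region gene for a heat-shock protein of the 70 family. It ranged from 2.77 to 5.44 TPM, median 3.67 TPM, in hearts without the transcript and from 3.32 to 11.7 TPM, median 5.86 TPM, in hearts with it. The ranges overlapped: 6 of the 8 hearts were below all of their own group and 1, Con week 2 replicate 5, was above. The difference of -0.51 (SE 0.10, limma adjusted p = 0.0209) was not called without CAC week 8 replicate 3 (-0.42, limma adjusted p = 0.333), without NCAC week 4 replicate 5 (-0.44, limma adjusted p = 0.373), without Con week 6 replicate 4 (-0.48, limma adjusted p = 0.195) or without CAC week 2 replicate 2 (-0.50, limma adjusted p = 0.0558). It was also not called in the groups that hold both sets alone (limma adjusted p = 0.304), with the left-out library kept in (limma adjusted p = 1.00) or with CAC week 2 left out (limma adjusted p = 0.172). Hspa1l shares 9.57% of its 50-base stretches with Hspa1a and overlaps Gm10501 on the other strand.

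Outside the H2 region the 2 calls were Pfdn6, at -402 kb from H2-Ea-ps, and Zfp81, at -983 kb, where a negative distance lies towards lower coordinates. Pfdn6 (chr17:33938821-33940343, minus strand), with the RefSeq synonym H2-Ke2, encodes a subunit of prefoldin, a chaperone that hands newly made actin and tubulin to the cytosolic folding machine. Pfdn6 counts as outside only because the region was set by current symbols, since under its synonym it would be inside. It was the only gene whose 2 sets did not overlap, 1 of 12540 genes or 0.00797%. Pfdn6 ranged from 22.7 to 28.2 TPM, median 26.3 TPM, in hearts without the transcript and from 28.3 to 50.2 TPM, median 37.7 TPM, in hearts with it. In CAC week 8 replicate 3 it was 23.4 TPM, against 36.5 to 49.98 TPM in the hearts with the transcript of that group. In Con at week 8 the 2 hearts without the transcript had 22.7 and 28.2 TPM, against 29.5 to 32.2 TPM in the hearts with it. The difference was -0.44 (SE 0.07, limma adjusted p = 4.27e-04), and -0.37 without CAC week 8 replicate 3 (limma adjusted p = 0.0194). Pfdn6 overlaps CR974462.1 on the other strand.

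Zfp81 (chr17:33329342-33358878, minus strand), a zinc-finger protein gene, was the single gene called higher. It ranged from 1.98 to 4.199 TPM, median 2.96 TPM, in hearts without the transcript and from 1.79 to 3.18 TPM, median 2.21 TPM, in hearts with it. The 4 hearts with 0.0973 to 0.842 TPM of H2-Ea-ps had 3.13, 3.39, 3.49 and 4.199 TPM of Zfp81, and the 4 hearts listed at 0 had 1.98, 2.30, 2.70 and 2.80 TPM. The difference of 0.28 (SE 0.06, limma adjusted p = 0.0262) was 0.12 when only the 4 hearts listed at 0 were set against the hearts with the transcript (limma adjusted p = 0.814). It was also not called without CAC week 2 replicate 2 (limma adjusted p = 0.0723), CAC week 2 replicate 3 (0.0636), Con week 6 replicate 4 (0.51), Con week 8 replicate 2 (0.0797) or NCAC week 4 replicate 5 (0.38). Without CAC week 8 replicate 3 it was 0.32 (limma adjusted p = 0.0194).

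**Figure D2:**
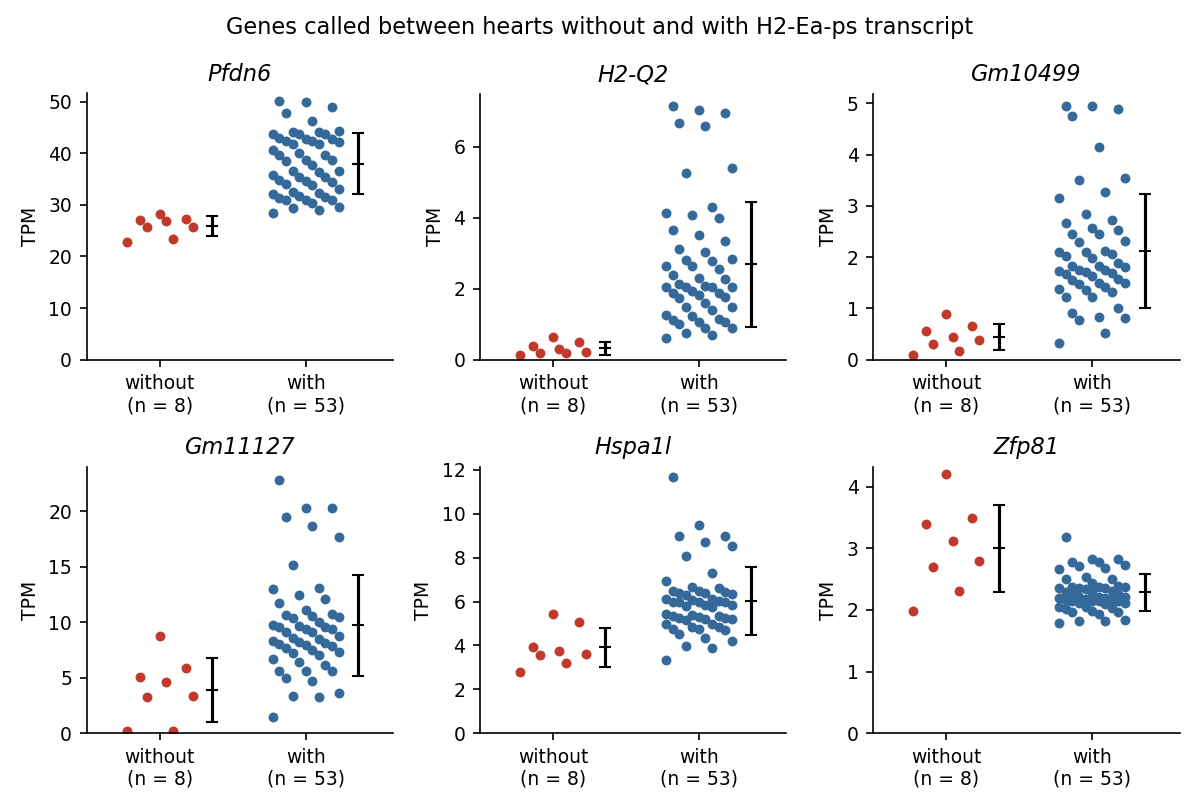
TPM of the 6 called genes in hearts without (red, n = 8) and with (blue, n = 53) the transcript, each point 1 library, with the mean and SD in black at the side. Pfdn6 is the panel in which no red point reaches the blue points, with 22.7 to 28.2 TPM against 28.3 to 50.2 TPM.

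The treatment and week groups were compared in the same fit. Over all genes 8907, or 71%, differed between the 12 groups at limma's F test. Of the 6 called genes, 2 also differed between the groups, Pfdn6 (limma adjusted p = 9.64e-04) and Hspa1l (limma adjusted p = 0.0112). The limma adjusted p of the F test was 0.198 for H2-Q2, 0.213 for Gm10499, 0.216 for Gm11127 and 0.0924 for Zfp81. The sets accounted for 21.9 to 30.5% of the variance of the 6 genes once the groups were fitted, and the 12 groups for 14.7 to 27.6% once the sets were fitted. The 6 genes were chosen for their difference between the sets, and the groups take more terms of the fit. The 2 shares are therefore not to be weighed against each other.

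The comparison was also made within arms. In CAC alone (22 libraries, 3 without the transcript) and in NCAC and Con (39 libraries, 5 without) limma called 0 genes. Unadjusted p was under 0.05 for 2704 of 12322 genes tested in CAC and for 1650 of 12097 in NCAC and Con. In the fit of all hearts it was 772 of 12540 genes, or 6.16%. The 6 genes kept the sign of their difference in both. They were chosen by the fit of all these libraries, so a kept sign is no separate test. H2-Q2 differed by -1.13 in CAC and -1.39 in NCAC and Con, Gm10499 by -0.72 and -1.24, and Pfdn6 by -0.57 and -0.37. The difference of the differences between CAC and the other arms was called for 1701 genes, or 13.6% (4549 genes, or 36.3%, at an unadjusted p under 0.05), and for none of the 6, whose limma adjusted p lay between 0.206 and 0.697. One of the 3 CAC hearts without the transcript was CAC week 8 replicate 3, and its part in the 1701 was not tested.

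Along chromosome 17, low p-values were densest around H2-Ea-ps. Unadjusted p was under 0.05 in 23 of 92 genes within 1 Mb (25%), 11 of 48 at 1 to 2 Mb (22.9%), 6 of 33 at 2 to 5 Mb (18.2%), 17 of 124 at 5 to 10 Mb (13.7%) and 18 of 322 farther away (5.59%). The share was 5.82% on the other chromosomes, 669 of 11504 genes, and 6.16% over all genes. Inside the H2 region it was 26 of 109 genes (23.9%), with 4 called, and outside it 6% with 2 called. Below an unadjusted p of 0.001 there were 26 genes, of which 14 lay on chromosome 17. Neighbouring genes are not independent, so these counts are a description.

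**Figure D3:**
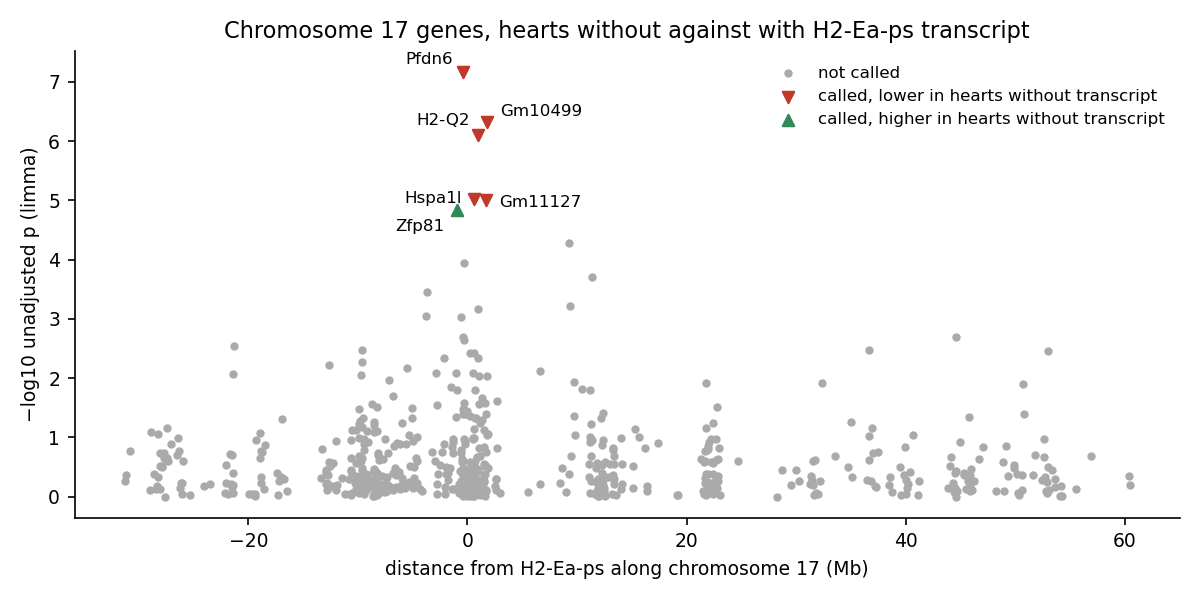
Each point is a tested gene of chromosome 17, by its distance in Mb from H2-Ea-ps and the −log10 of its unadjusted p from limma for hearts without against with the transcript. Red triangles point down for genes called lower and the green one up for Zfp81, called higher; the 6 calls lie within 2 Mb of H2-Ea-ps.

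The class II genes themselves were not called between the sets. H2-Aa, the alpha chain of the A molecule, averaged 23.8 ± 9.81 TPM in hearts without (SD, n = 8) and 21.7 ± 11.3 TPM in hearts with the transcript (SD, n = 53), a difference of 0.18 (limma adjusted p = 1.00). H2-Ab1, its beta chain, averaged 17.1 ± 8.33 and 17.4 ± 8.95 TPM in the same order, a difference of 0.01. H2-Eb1, the beta chain that pairs with E alpha, averaged 27.0 ± 25.7 TPM and 28.8 ± 15.6 TPM, a difference of -0.87 (SE 0.40, limma adjusted p = 0.76). Of the class II list 0 of 7 tested members were called, where 0.0478% of all genes were. The median difference of the list was -0.15 against 0.01 over all genes.

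H2-Eb1 varied more among the 8 hearts than its mean shows. To set aside the overall class II level it was divided by H2-Ab1, a ratio chosen after the values were seen. In the 4 hearts listed at 0 for H2-Ea-ps the ratio was 1.98 to 2.40. It was 1.07 and 0.816 in CAC week 2 replicates 1 and 2, and 0.126 and 0.112 in Con week 6 replicate 4 and NCAC week 4 replicate 5, where H2-Eb1 was 1.06 and 1.88 TPM. Hearts with the transcript had ratios of 0.793 to 1.96, median 1.66. The 8 hearts thus lay above, inside and below the range of hearts with the transcript.

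The 2 hearts lowest in H2-Eb1 were also the lowest of the 8 in Gm11127, as given above, and in H2-Q6, another class I gene, at 0.125 and 0.362 TPM. The other 6 hearts without the transcript had 4.52 to 17.1 TPM of H2-Q6, and hearts with it 0.733 to 27.6 TPM. H2-K2, a class I gene near H2-K1, was at 3.22 to 6.56 TPM in the 4 hearts with a trace of H2-Ea-ps and at 0.0436 to 1.07 TPM in the 4 listed at 0, while hearts with the transcript had 0.266 to 2.13 TPM. Glo1, the glyoxalase gene proximal to the complex, was at 69.1 to 84.5 TPM in 5 of the 8 and at 126 to 131 TPM in CAC week 2 replicates 1 and 2 and NCAC week 4 replicate 5. Hearts with the transcript had 66.7 to 230.1 TPM of Glo1, median 157 TPM, a difference of -0.60 (limma adjusted p = 0.315). H2-Q6, H2-K2 and Glo1 were chosen after their values were seen. By these genes the 8 hearts were not alike on chromosome 17.

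Hearts with the transcript divided as well when H2-Ea-ps was divided by H2-Ab1. In 28 hearts the ratio was 0.574 to 0.818 and in 25 it was 1.04 to 1.59, with a gap of 0.218 between them and no other gap above 0.105. The higher ratio was found in 9 of 19 CAC, 11 of 19 NCAC and 5 of 15 Con hearts. In the same hearts H2-Eb1 over H2-Ab1 was 0.793 to 1.72 where the ratio was higher and 1.56 to 1.96 where it was lower. This division was noticed in the data and carries no test.

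**Figure D4:**
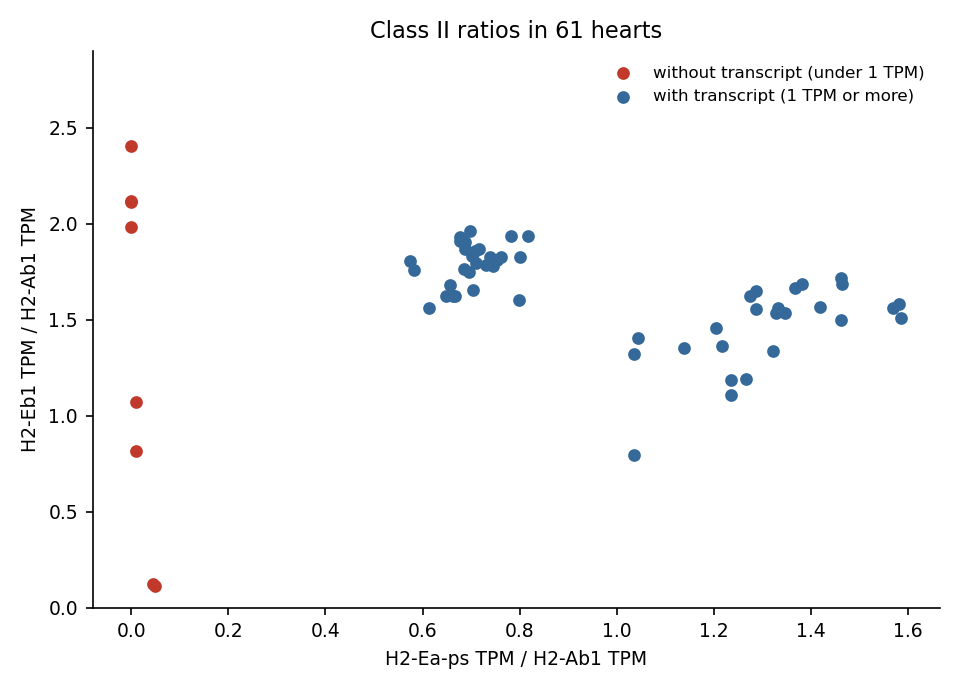
H2-Eb1 over H2-Ab1 against H2-Ea-ps over H2-Ab1, both as ratios of TPM, in 61 hearts. The red points, hearts without the transcript, spread from 0.112 to 2.40 on the vertical axis, and the blue points, hearts with it, form 2 clusters at 0.574 to 0.818 and 1.04 to 1.59 on the horizontal axis.

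Among class I and antigen processing genes 1 of 22 tested was called, H2-Q2, where 0.0478% of all genes were, and the median difference was -0.04. H2-K1 averaged 83.8 ± 28.9 TPM in hearts without (SD, n = 8) and 63.7 ± 22.02 TPM in hearts with the transcript (SD, n = 53), and H2-D1 70.6 ± 46.5 TPM and 102 ± 38.4 TPM. Both are classical class I heavy chains, and neither was called (limma adjusted p = 0.899 for H2-K1 and 0.571 for H2-D1). H2-Q1 averaged 1.46 TPM and 1.69 TPM in the same order and was not called. Of 33 class III genes 1 was called, Hspa1l, with a median of 0.01. H2-Q2 and Hspa1l are among the 6 calls given above, so these counts hold no further call. The complement genes C4b (medians 4.57 and 3.73 TPM), C4a (0.320 and 0.309 TPM) and C2 (0.444 and 0.319 TPM), each in hearts without and then with the transcript, were not called. Their differences within groups were -0.12 (SE 0.18), -0.27 (SE 0.10) and 0.07 (SE 0.07).

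Genes known to vary between inbred strains were not called, 0 of 6 tested, where 0.0478% of all genes were called. Glo1, 1 of the 6, was called in 2 alternatives, with the 4 hearts listed at 0 set alone against the hearts with the transcript and with CAC week 2 left out. Nnt, a mitochondrial transhydrogenase gene that carries a deletion in C57BL/6J, was at 204 to 289 TPM in hearts without and 160 to 290.1 TPM in hearts with the transcript, a difference of 0.08 (limma adjusted p = 0.907). Ifi202b, an interferon-induced gene, had medians of 7.01 TPM in hearts without and 6.02 TPM in hearts with the transcript and a difference within groups of -0.11 (SE 0.17). The endosomal protein gene Wdfy1 had medians of 10.2 TPM and 9.78 TPM and a difference of 0.03 (SE 0.05). Of the 15 genes of a cachexia panel 0 were called and 9 had an unadjusted p under 0.05, against 6.16% of all genes. Their median difference, over the 15 genes, was -0.42. Serpina3n had medians of 2.53 TPM in hearts without and 3.39 TPM in hearts with the transcript, Lcn2 0.891 and 1.17 TPM, and Mt2 31.5 and 34.95 TPM. Their differences within groups were -0.96 (SE 0.43), -1.11 (SE 0.40) and -0.42 (SE 0.37), none of them called. In NCAC and Con alone Serpina3n and Mt2 had the opposite sign, 0.10 and 0.33, while Lcn2 did not change sign. The hearts with the transcript hold all 5 CAC week 6 hearts, with 423 to 1767 TPM of Serpina3n, and the other 6 CAC week 8 hearts, and CAC week 8 replicate 3, described above, is in the other set. Values of the panel without that library are not given here.

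Hearts with the transcript also differed in how much of it they held, and genes were fitted against that level within the 12 groups. This fit used the same H2-Ea-ps values that chose the sets, above the threshold, so it is not independent of the choice and serves as a description beside the comparison. Of 12501 genes 101 had a slope called by limma, 0.808%, of which 98 were positive (0.784%) and 3 negative (0.024%). In the H2 region 23 of 109 genes had a called slope, all 23 positive. The class II list had 7 of 7 tested members called positive, the class I list 14 of 22 and the class III list 2 of 33.

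The 6 smallest p-values belonged to class II genes and their partner. They were H2-DMb1 (slope 0.51, SE 0.04, limma adjusted p = 1.47e-12) and H2-DMa (0.39, SE 0.04), the chains of the peptide-loading helper, H2-Ab1 (0.74, SE 0.06), H2-Aa (0.73, SE 0.07), Cd74 (0.69, SE 0.07), the invariant chain, and H2-Eb1 (0.79, SE 0.09, limma adjusted p = 1.89e-07). A slope is the change in log2(TPM + 1) per unit of log2(H2-Ea-ps TPM + 1). H2-Q2, Gm11127 and Gm10499, lower in hearts without the transcript, had positive slopes of 0.51, 0.50 and 0.34, each called. The sets that chose these genes and the slopes rest on the same H2-Ea-ps values, so the slopes are no separate test. The slopes of Pfdn6 (0.08, limma adjusted p = 0.20), Hspa1l (-0.01, limma adjusted p = 0.976) and Zfp81 (-0.0008, limma adjusted p = 0.999) were not called. Next in order of p came H2-Q2 and H2-DMb2. After them, genes on other chromosomes that are active in immune cells or after interferon stood among further H2 region genes, such as Gm8909, H2-Q1 and H2-D1. Those on other chromosomes, chosen after their values were seen, were Mpeg1 (0.32, limma adjusted p = 2.05e-05), a pore-forming protein of macrophages, and the interferon-induced GTPase genes Irgm2 (0.57) and Igtp (0.74). Also chosen were Ctss (0.32), a protease of antigen processing, and the leukocyte surface genes Cd52 (0.31) and Ptprc (0.15, limma adjusted p = 4.47e-04). Of the listed macrophage markers 0 of 6 and of the B cell markers 0 of 4 tested had a called slope. Over all genes 0.808% had one, so 0 calls in such short lists say little. The part of immune cell number in the slopes was not tested.

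**Figure D5:**
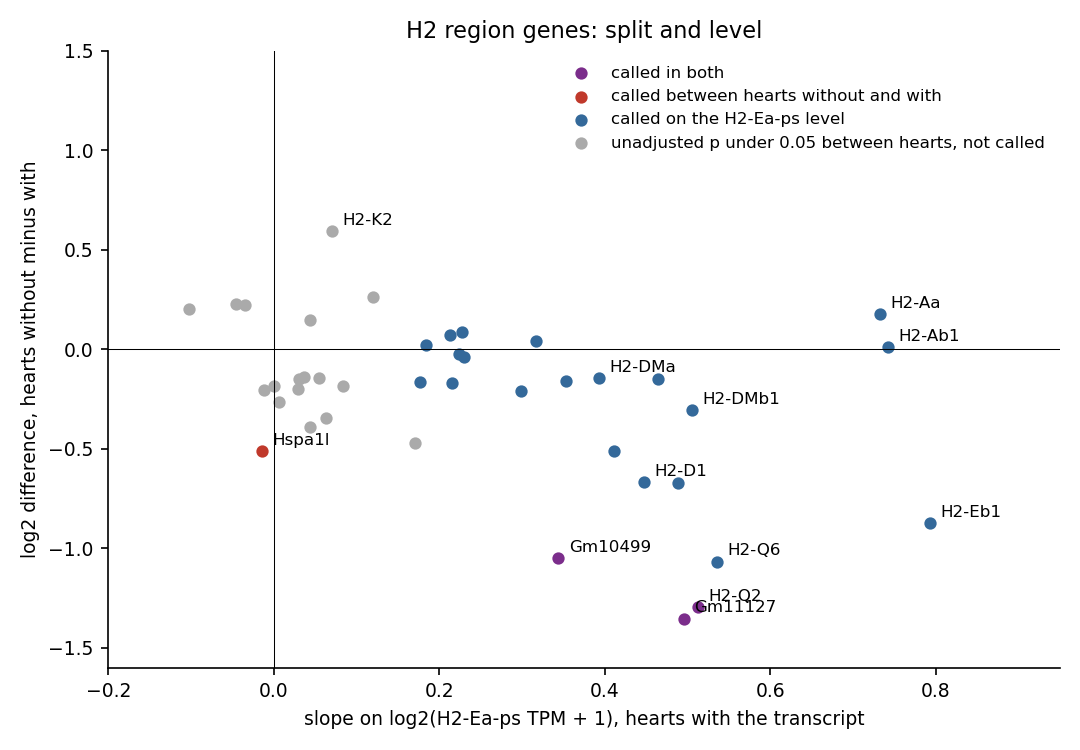
Genes of the H2 region with an unadjusted p under 0.05 between the sets or a called slope, by their slope on the H2-Ea-ps level in hearts with the transcript (horizontal) and their log2 difference of hearts without minus with (vertical). H2-Aa and H2-Ab1 lie near 0 on the vertical axis at slopes of 0.73 and 0.74, while H2-Q2 and Gm11127 lie at -1.29 and -1.35.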

How the data were processed

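RNA of 62 mouse hearts was measured after Trizol extraction, with a stranded mRNA kit and a NovaSeq instrument, per the labels' protocols. The authors deposited TPM values, mapped to mm10 per the submitters' processing notes; aligner, counter and annotation are not given in the sources used here. Since TPM sums to a fixed total, abundant transcripts shift all others. Read depth is given only relative to the median library, from the smallest steps between values. Positions were joined by symbol from GENCODE M21 (45134 of 47643 symbols matched), an assumed version.

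Genes that reached 1 TPM in 5 or more libraries were tested as log2(TPM + 1) in R 4.3.3, using limma-trend (limma 3.58.1), and read in by the package data.table (version 1.17.8). The set and the 12 groups were terms, and p-values were adjusted by Benjamini-Hochberg over all genes at 0.05. H2-Ea-ps was left out of every count. The same fit gave the F test over groups. Slopes on the H2-Ea-ps level were fitted in the 53 hearts with the transcript, and a further fit tested the difference between CAC and the other arms. The fit was tested on simulated data. The sets, lists and members were chosen with earlier results of these data known.

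Genes named were the called genes, those whose sets do not overlap, the first 3 uncalled members of each H2, strain and cachexia list, and the 6 smallest slope p-values; others are stated as chosen after their values were seen. Alternatives were 15 settings and leaving out each library. No 2 libraries were copies (highest Pearson r 0.994). Sequences were handled in Python 3.11.15 with Biopython 1.88, and figures drawn with matplotlib 3.10.9, pandas 2.3.3 and numpy 2.4.6.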

Additional observations from a re-analysis of the deposited data

Results flagged for a closer look

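Among the 8 hearts without H2-Ea-ps transcript, 7 of 28 named genes checked each had 1 library far from the others. The measure was the gap to the nearest heart as a share of the range. Chance marks about 1 in 20 groups of like replicates. These 8 hearts came from several groups of arm and week, so that rate does not apply to them. Con week 8 replicate 5 had 150 TPM of H2-K1, with the next heart at 85.1 TPM, 175 TPM of H2-D1, with the next at 94.0 TPM, and 3.48 TPM of H2-DMb1, with the next at 1.76 TPM. CAC week 8 replicate 3 had 23.02 TPM of C4b (next 6.78 TPM), 1.24 TPM of C2 (next 0.591 TPM), 13.6 TPM of Ifi202b (next 8.22 TPM) and 54.9 TPM of Serpina3n (next 9.74 TPM). The other CAC week 8 hearts had 62.2 to 99.4 TPM of C4b, 38.4 to 44.6 TPM of Ifi202b and 1665 to 2841 TPM of Serpina3n. Within its own group this heart was thus low in these genes, and its C2 lay near the lowest of the others. The difference between hearts without and with the transcript itself differed between CAC and the other arms for 6 of the 28 named genes by limma's interaction term, against 13.6% of all genes tested. On the log2 scale, CAC minus the other arms, it was -2.66 for Lcn2 (limma adjusted p = 0.0223), -0.61 for C4a (0.0289), -2.90 for Serpina3n (0.0213), -2.08 for Mt2 (0.0465), 1.62 for Mylk4 (0.0195) and -0.29 for Wdfy1 (0.0448). CAC week 8 replicate 3 is 1 of the 3 CAC hearts without the transcript, and its part in these differences was not tested.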

How the results depend on the processing

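The 6 called genes kept the sign of their difference in every alternative in which they were tested. The alternatives reuse libraries that gave the calls, so a kept sign is no separate test. The 6 calls became 0 in CAC alone and 0 in NCAC and Con alone, 1 at an H2-Ea-ps threshold of 0.5 TPM (Pfdn6), 10 with array quality weights, 10 with median-of-ratios rescaling, 10 with no filter and 11 when rescaled without mitochondrially encoded and haemoglobin genes. The 4 calls inside the H2 region became 0 in each of the 2 arm subsets, 0 at 0.5 TPM, 6 with array quality weights, 6 with no filter and 1 when the 4 hearts listed at 0 stood alone. The 2 calls outside it became 0 in each arm subset; 1 with the left-out library kept in, at 0.5 TPM, with a filter of 5 TPM and in groups that hold both sets; 4 with array quality weights, with no filter and for the hearts listed at 0; 5 with median-of-ratios rescaling; and 6 without mitochondrial and haemoglobin genes. The 101 slopes became 4 in CAC alone, 67 in NCAC and Con, 349 with the left-out library kept in, 235 with array quality weights, 49 with a filter of 5 TPM and 163 without mitochondrial and haemoglobin genes. Apart from fits that leave out a library, genes on other chromosomes were called in 4 settings: Epn3 (chromosome 11) in both rescaled fits, Mbd2 (18) without mitochondrial and haemoglobin genes, Gm16093 (3) with no filter, and Ubb and Zswim7 (11) for the hearts listed at 0. The left-out library kept in, the groups that hold both sets and the fit without CAC week 2 each lost Hspa1l and Zfp81. The cause of these shifts was not tested. The fit of the hearts listed at 0 and the fit without CAC week 2 (5 calls each) were chosen after the data were seen. Replicate numbers did not pair the samples: residuals of libraries with the same number had a mean correlation of -0.0043 (319 pairs), against 0.0009 for other numbers (1384 pairs). With a replicate block 4 genes were called, 3 inside and 1 outside the H2 region, and 57 slopes. Leaving out 1 library at a time gave 3 to 8 calls, 2 to 5 inside and 1 to 4 outside the H2 region, and 53 to 116 slopes. There were 3 calls without Con week 6 replicate 4 and 3 without NCAC week 4 replicate 5, 2 inside without either or without CAC week 8 replicate 3, and 53 slopes without NCAC week 2 replicate 2. Outside it was 1 without CAC week 2 replicate 2 or 3, Con week 6 replicate 4 or NCAC week 4 replicate 5, and 4 without Con week 2 replicate 5. Pfdn6, Gm10499 and H2-Q2 were called in 61 of 61 such fits.

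Of the uncalled genes named, some changed sign. In CAC alone C2 was -0.077 and Wdfy1 -0.15. In NCAC and Con C4b was 0.19, H2-Ab1 -0.039, Ifi202b 0.12, Mt2 0.33 and Serpina3n 0.10. With array quality weights C4b was 0.18, H2-Ab1 -0.13, H2-Q1 0.00015, Ifi202b 0.13 and Mt2 0.10. For the hearts listed at 0 C2 was -0.027, H2-Eb1 0.68 and Wdfy1 -0.037. H2-Ab1 was -0.0078 at 0.5 TPM, -0.0028 with median-of-ratios rescaling and -0.0083 without mitochondrial and haemoglobin genes. Only 8 hearts were under 1 TPM, and differences of low genes are limited by depth.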
